A study of Mus musculus with 4 samples.

Results

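The genes described here encode the receptors for glutamate, GABA and glycine, the fast and modulatory transmitters of the retina. Members were the gene symbols of the AMPA (Gria), NMDA (Grin), kainate (Grik), delta (Grid) and metabotropic (Grm) glutamate receptors, the GABA-A (Gabra, Gabrb, Gabrg, Gabrd and Gabrr) and GABA-B (Gabbr) receptors, and the glycine receptors (Glra and Glrb). They were taken by name, under a rule that held no measured value but was chosen with earlier results of these data known. Of the 21827 genes listed, 48 were members, 1 further metabotropic receptor gene being left out by the rule. All 48 had an OK status in each of the 4 libraries, meaning that the quantification had not failed.

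RNA was sequenced from sorted retinal cells of mice of the slc:ICR background at postnatal day 12. Dissociated retinas were stained for Cd73, the ectonucleotidase that Nt5e encodes and that marks rods and their precursors, and cells with it (Cd73P) and without it (Cd73N) were collected. Each fraction was taken from Ezh2-CKO retina, in which Ezh2-floxed alleles were recombined by DKK3-Cre in retinal progenitor cells, and from normal littermates (wild type). There was 1 library for each of the 4 groups, so the spread between animals or sorts is unknown, no test was possible, and every SE (standard error) given reflects counting error alone. Ezh2 is the methyltransferase of Polycomb complex PRC2 that acts on lysine residues of histone H3. Because Cre acts in progenitors, recombination could reach every cell class that they give rise to, and the number of pooled retinas at this age is not given in the sources used here. The Cd73N fraction was a mixture of interneurons, Müller glia, ganglion cells and cones.

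Glutamate is released by photoreceptors and bipolar cells. Cone bipolar cells of the OFF type receive it through AMPA and kainate receptors, amacrine and ganglion cells use AMPA and NMDA receptors, and metabotropic receptors act through G proteins. GABA and glycine are the transmitters of amacrine cells, and the rho subunits of the GABA-A family are best known from the axon terminals of bipolar cells.

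The start regions of 6 members are shown as 2 sets of 3 that went in opposite directions between genotypes. Grm8, Grik4 and Gabra2 were the members higher by at least 1.5-fold, on the log2(FPKM + 1) scale, in the Cd73P library labelled Ezh2-CKO. Gabrr1, Gabrr2 and Gabrr3 form the rho subunit class, whose summed level was lower in that genotype in both fractions. Gabrr2 itself was past 1.5-fold in neither fraction. Each sequence is the 250 bases in front of the outermost annotated start of the gene, 5′ to 3′ along the gene's strand, read from the mm9 genome. Capitals mark CpG dinucleotides, because PRC2 is known to be recruited to CpG-rich DNA.
Grm8, mm9 chr6:28085179-28085428, minus strand: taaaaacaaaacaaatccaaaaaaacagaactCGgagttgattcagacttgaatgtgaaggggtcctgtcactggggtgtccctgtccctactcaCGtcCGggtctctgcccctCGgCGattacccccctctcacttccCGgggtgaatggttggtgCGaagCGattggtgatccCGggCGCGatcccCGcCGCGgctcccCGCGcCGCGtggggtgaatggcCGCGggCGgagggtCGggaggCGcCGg
Grik4, mm9 chr9:42752577-42752826, minus strand: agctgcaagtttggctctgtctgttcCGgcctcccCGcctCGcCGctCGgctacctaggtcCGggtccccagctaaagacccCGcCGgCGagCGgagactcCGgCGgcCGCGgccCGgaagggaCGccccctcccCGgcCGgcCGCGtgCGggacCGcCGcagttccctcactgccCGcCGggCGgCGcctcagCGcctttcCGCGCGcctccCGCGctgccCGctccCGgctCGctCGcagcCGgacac
Gabra2, mm9 chr5:71487089-71487338, minus strand: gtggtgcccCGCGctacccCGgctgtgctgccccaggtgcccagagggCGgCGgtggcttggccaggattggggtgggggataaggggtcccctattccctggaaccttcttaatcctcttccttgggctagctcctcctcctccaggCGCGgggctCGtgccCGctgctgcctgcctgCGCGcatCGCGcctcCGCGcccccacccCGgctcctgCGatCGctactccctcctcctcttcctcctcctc
Gabrr1, mm9 chr4:33219246-33219495, plus strand: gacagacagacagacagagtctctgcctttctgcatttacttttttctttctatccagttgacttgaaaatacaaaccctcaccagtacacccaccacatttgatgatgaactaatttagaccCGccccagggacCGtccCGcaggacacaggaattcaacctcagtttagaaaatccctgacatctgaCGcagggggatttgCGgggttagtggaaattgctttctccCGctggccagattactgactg
Gabrr2, mm9 chr4:33149724-33149973, plus strand: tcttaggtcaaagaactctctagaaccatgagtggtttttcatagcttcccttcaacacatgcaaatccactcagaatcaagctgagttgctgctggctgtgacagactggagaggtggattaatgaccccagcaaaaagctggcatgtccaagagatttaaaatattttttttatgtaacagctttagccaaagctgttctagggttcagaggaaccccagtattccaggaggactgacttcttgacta
Gabrr3, mm9 chr16:59406908-59407157, plus strand: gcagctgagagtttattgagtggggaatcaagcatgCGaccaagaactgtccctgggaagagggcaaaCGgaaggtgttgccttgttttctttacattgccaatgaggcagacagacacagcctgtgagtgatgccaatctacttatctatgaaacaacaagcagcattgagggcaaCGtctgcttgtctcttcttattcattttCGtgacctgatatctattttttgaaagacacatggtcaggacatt
The windows of Grm8, Grik4 and Gabra2 held 24, 38 and 18 CpG, while those of Gabrr1, Gabrr2 and Gabrr3 held 6, 0 and 4. Over the 48 members the median was 10 CpG in the same window and over 20796 genes it was 9. Among the members past 1.5-fold between genotypes, however, the 6 that were higher had a median of 17 CpG and the 8 that were lower a median of 12, with ranges of 5 to 38 and 3 to 40. These ranges overlapped over most of their length, unlike the values of the 6 windows printed. The sequence TAATCC, the letters bound by the homeodomain proteins Crx and Otx2 in photoreceptors and bipolar cells, was searched on both strands, its other strand reading GGATTA. It occurred in the windows of 2 members, Gabra2 and Gabrr2, which is 4.17% of members beside 6.59% of all genes. A match describes these letters only, and no occupancy was measured in these libraries.

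Several checks on the libraries bear on the comparisons. Nt5e was at 0.84 and 0.61 FPKM (fragment counts scaled by exon length and library total) in Cd73N and at 125 and 123 FPKM in Cd73P, as the fraction labels state. Ezh2 was at 14.1 FPKM in wild type and 15.9 FPKM in Ezh2-CKO in Cd73N, and at 5.38 and 3.45 FPKM in Cd73P. In Cd73N the gene-level Ezh2 value was thus not lower under the Ezh2-CKO label. Gene-level FPKM does not resolve the floxed part of Ezh2, so the label could not be checked there. For this reason the text speaks of a library labelled Ezh2-CKO where it draws a direction. Sex-linked transcripts also separated the genotypes. The sum of 4 Y-linked genes was 26.8 and 0.72 FPKM in Cd73N and 27.9 and 0.50 FPKM in Cd73P, wild type first. In every genotype comparison of both fractions, genotype and the sex of the animals thus cannot be told apart. Read totals were not in the tables, and the widths of the deposited bounds put the depth of the other 3 libraries at 1.001 to 1.17 times that of Cd73N wild type. The bipolar marker list (18 genes) summed to 3613 and 2054 FPKM in the Cd73N wild-type and Ezh2-CKO libraries and to 591 and 324 FPKM in Cd73P. Müller glia markers (19 genes) summed to 1725 and 7293 FPKM in Cd73N and to 356 and 565 FPKM in Cd73P, and the rod list (24 genes) to 3114 and 3313 FPKM and to 30768 and 40140 FPKM. In bulk RNA of this kind, fewer cells of a type and less RNA per cell cannot be told apart.

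The first question was where the receptor genes were expressed. They were mainly found in Cd73N. At least 1 FPKM was reached by 25 members in the Cd73N library of wild type and 27 in that of Ezh2-CKO, but by 15 and 11 members in the Cd73P libraries. The summed level of all members was 911 and 705 FPKM in Cd73N and 77.3 and 56.2 FPKM in Cd73P, wild type first. Gabrr1, which encodes the rho 1 subunit, was the highest member in both Cd73N libraries at 199 and 106 FPKM, and Gabbr1, a GABA-B subunit, was the highest in both Cd73P libraries at 17.0 and 11.2 FPKM. Of the 48 members, 23 reached 5 FPKM in at least 1 library, 6 had their highest value between 1.06 and 3.87 FPKM, and 19 stayed under 1 FPKM in all 4 libraries.

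**Figure D1:**
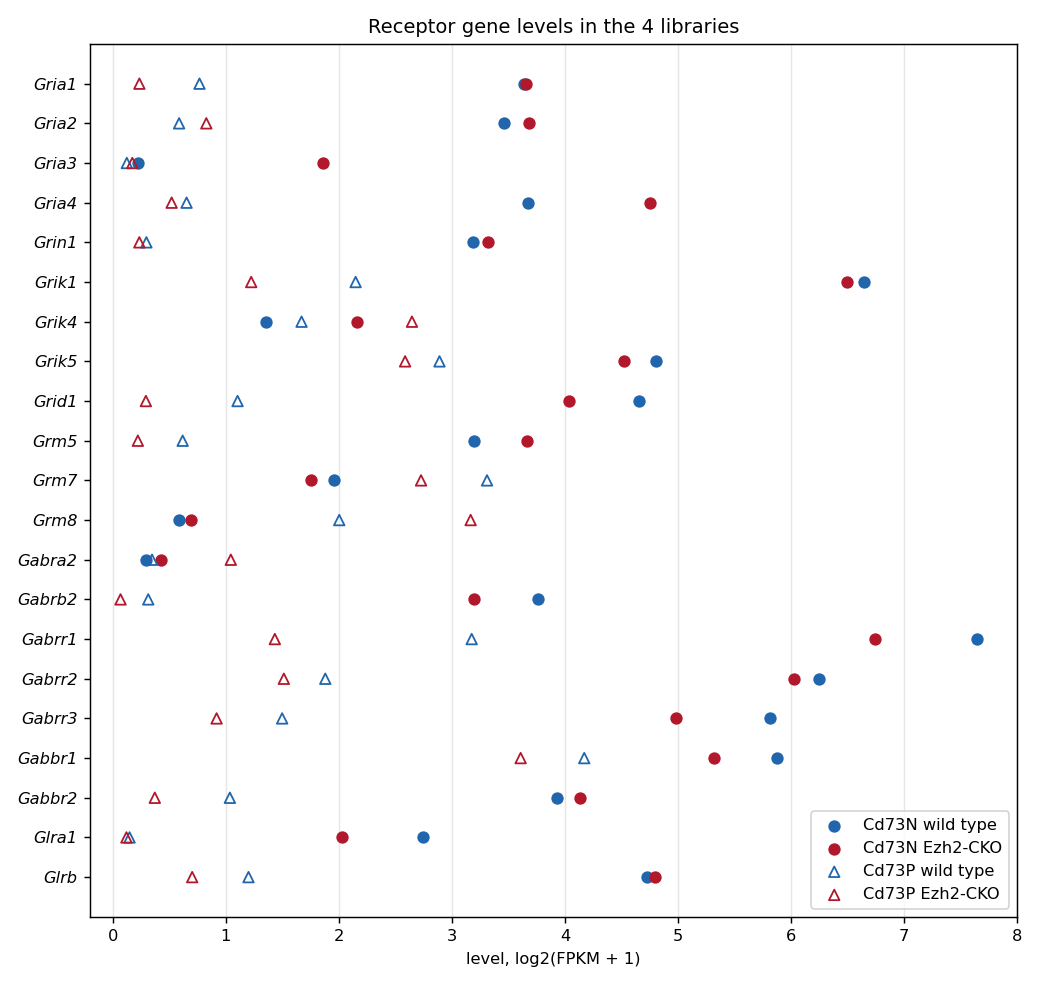
Levels, as log2(FPKM + 1), of 19 members with at least 5 FPKM in a library and of Gria3 and Gabra2, which passed 1.5-fold between genotypes. Circles are Cd73N and triangles Cd73P, blue wild type and red Ezh2-CKO, 1 library each; most members sit far to the right in Cd73N, while Grm7, Grm8, Grik4 and Gabra2 have their highest levels in Cd73P.

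In wild type, 26 members were lower in Cd73P than in Cd73N by at least 1.5-fold on the log2(FPKM + 1) scale, the threshold used throughout, beside 27.9% of all genes, and 2 were higher, beside 9.07%. In the libraries labelled Ezh2-CKO 29 were lower, beside 29.1%, and 3 were higher, beside 8.4%. The share of members lower in Cd73P was thus 54.2% in wild type and 60.4% in Ezh2-CKO. The median log2 difference of the members, Cd73P minus Cd73N, was -0.83 in wild type and -1.26 in Ezh2-CKO, and over all genes it was -0.05 and -0.09. Each library of the fraction comparisons is also used in a genotype comparison, so the values of the 4 comparisons are not independent.

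Grm7 and Grm8 were the members higher in Cd73P in both genotypes. Both encode group III metabotropic receptors, which lower cyclic AMP and are known as presynaptic autoreceptors at glutamatergic terminals. Grm7 was at 2.89 FPKM in Cd73N and 8.92 FPKM in Cd73P of wild type, and at 2.37 and 5.62 FPKM in the libraries labelled Ezh2-CKO. Grm8 was at 0.50 FPKM in Cd73N and 3.01 FPKM in Cd73P of wild type, and at 0.62 and 7.97 FPKM in Ezh2-CKO. The 7 metabotropic receptor genes among the members summed to 12.5 FPKM in Cd73P and 12.4 FPKM in Cd73N of wild type. This near-equal level holds for these genes alone, since the metabotropic receptor gene left out by the rule is not in the sums. The rho subunits summed to 12.5 FPKM in Cd73P and 329 FPKM in Cd73N.

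For the 25 members with at least 1 FPKM in Cd73N of wild type, the Cd73P level was a median of 5.02% of the Cd73N level, and 20 of them lay under 10%. These members were selected by their Cd73N level, which leaves out Grm8 and makes the percentages lean low, so they serve only to set the genotypes side by side. Among the 27 such members in Ezh2-CKO the median was 2.34%, and 23 lay under 10%. Gabbr1 and Grik5 had nearly the same percentage in both genotypes, at 29.4% and 28.7%, and 23.8% and 22.8%. Of the 25 members that could be compared, 21 had a lower percentage in Ezh2-CKO. The medians of the bipolar, cone, amacrine and Müller glia marker lists also went down, from 6.87% to 2.95%, from 6.89% to 2.22%, from 15.7% to 6.02% and from 8.97% to 3.85%. Those of the horizontal, ganglion cell and astrocyte lists went from 47.6% to 30.9%, from 24.9% to 12.0% and from 30.3% to 19.3%. Each median covers the list genes with at least 1 FPKM in Cd73N of that genotype, so the genes behind it can differ. The horizontal medians rest on 3 genes in wild type and 4 in Ezh2-CKO, the ganglion cell ones on 7 and 8, and the amacrine ones on 7 and 10. Part of these falls can thus come from the added genes. The microglia and the endothelial and pericyte medians were 20.7% and 19.6%, and 4.14% and 3.80%. The summed levels behind these falls differed, since Müller glia sums were higher in Ezh2-CKO in both fractions and bipolar sums lower in both. The part of carry-over of Cd73N cells or their RNA in the Cd73P values was not tested.

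**Figure D2:**
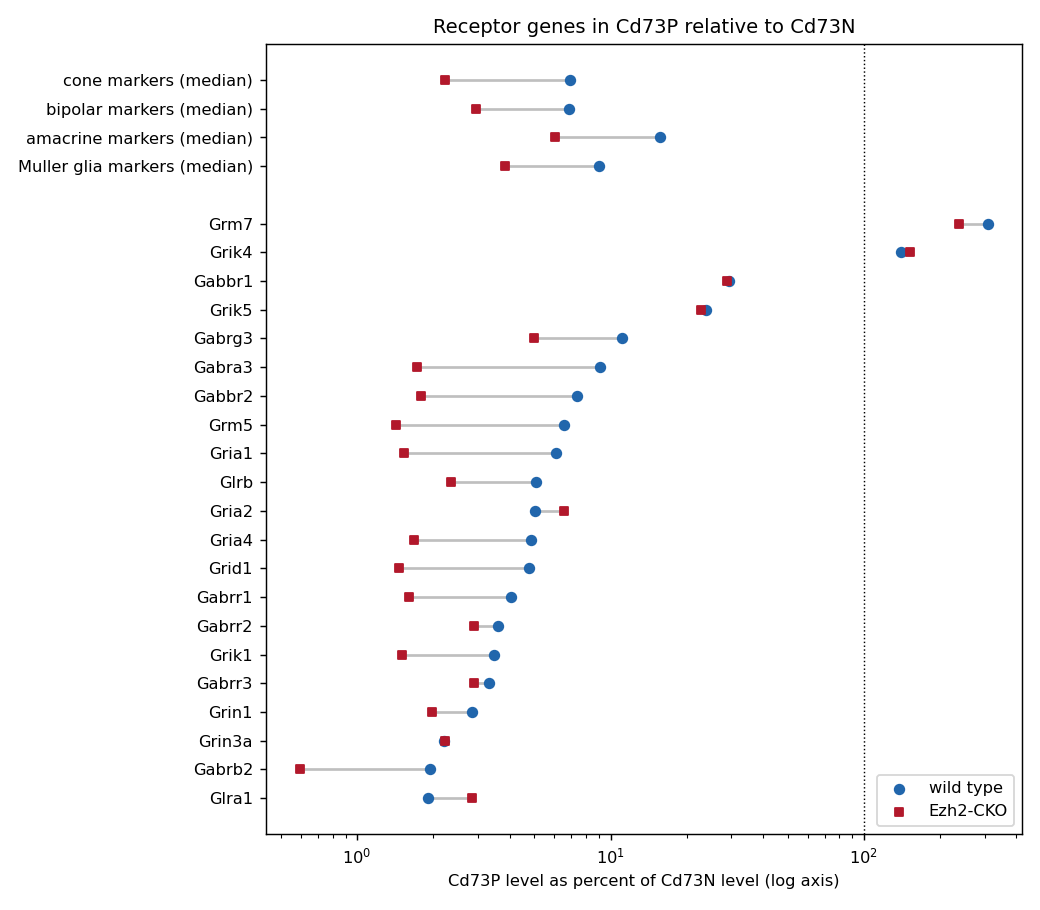
Level in Cd73P as a percent of the level in Cd73N (log axis), with blue circles for wild type and red squares for Ezh2-CKO. Below are 21 members with at least 1 FPKM in both Cd73N libraries, above are the medians of 4 marker lists; Grm7 and Grik4 lie above 100%, and 17 of the 21 members lie further left in Ezh2-CKO.

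The second question was which receptor genes differed between genotypes. In Cd73N, 4 members were higher in the library labelled Ezh2-CKO (among them Gria3, Gria4 and Grik4), which is 8.33% of members beside 7.18% of all genes. A further 5 were lower (among them Gabrr1, Gabrr3, Glra1 and Grid1), which is 10.4% of members beside 1.71% of all genes. The median log2 difference of the members, Ezh2-CKO minus wild type, was 0.01 and that of all genes 0.

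In Cd73P, 3 members were higher in the library labelled Ezh2-CKO (Gabra2, Grik4 and Grm8), 6.25% of members beside 2.26% of all genes. The 6 lower members, among them Gabbr2, Gabrr1, Grid1 and Grik1, were 12.5% of members beside 2.38% of all genes. The median log2 difference of the members was -0.05 and that of all genes 0. Among the 16 members with at least 1 FPKM in either Cd73P library the median was -0.57, beside -0.04 for all such genes. Of these 16 members, 13 had a negative difference and 3 a positive one. The comparisons in Cd73N and Cd73P share no library, but the fractions of a genotype may come from the same retinas. Both comparisons also carry the difference in sex-linked transcripts, so they are not independent. Grid1 and Gabrr1 were among the 3 members lower in both fractions, Grik4 was higher in both, and 34 members were past the threshold in neither.

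**Figure D3:**
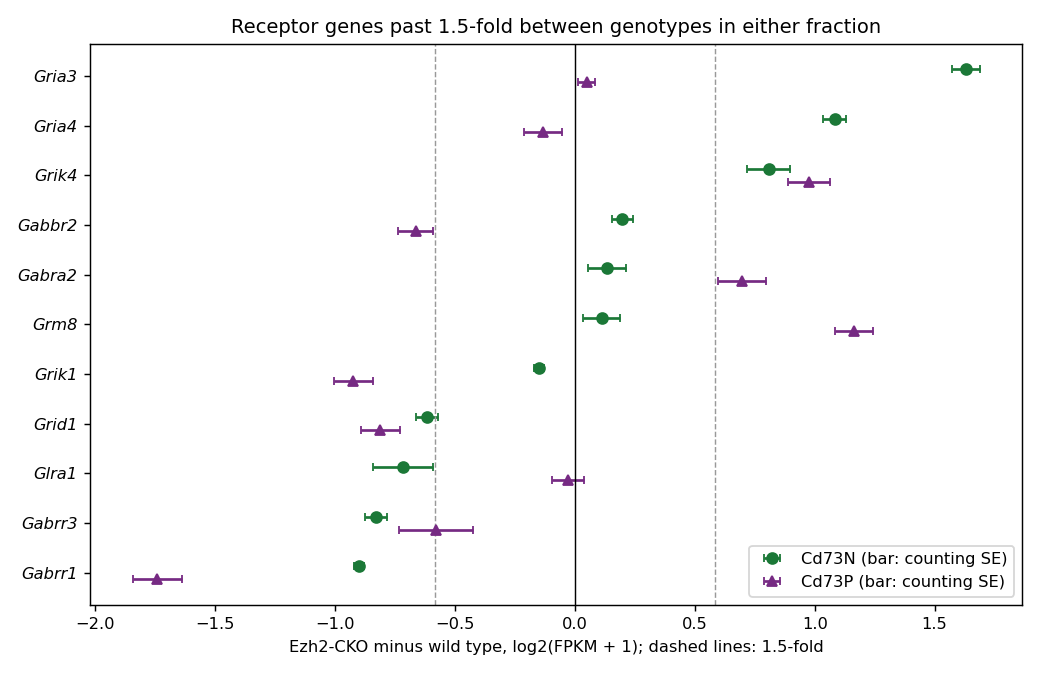
Difference in log2(FPKM + 1), Ezh2-CKO minus wild type, for 11 of the 14 members past 1.5-fold (dashed lines) in either fraction, with green circles for Cd73N, purple triangles for Cd73P and bars for 1 counting SE, which leaves out any spread between animals. Grik4 lies to the right and Gabrr1 to the left in both fractions, whereas Gria3 and Gria4 are high in Cd73N alone and Grm8 and Gabra2 in Cd73P alone.

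AMPA receptors carry the fast excitatory current, and their 4 subunit genes summed to 33.4 FPKM in wild type and 52.0 FPKM in Ezh2-CKO in Cd73N. Gria4 was the highest of them in both libraries, at 11.7 FPKM in wild type and 26.0 FPKM in Ezh2-CKO, a log2 difference of 1.08 (SE 0.047). Gria1 was at 11.5 and 11.6 FPKM and Gria2, whose edited subunit keeps calcium out of the channel, at 9.996 and 11.8 FPKM. The share of Gria4 in the AMPA class was thus 35.2% in wild type and 49.9% in Ezh2-CKO, while that of Gria1 was 34.4% and 22.3%. Amacrine markers moved with the class in Cd73N, 6 of 17 being higher and 0 lower in Ezh2-CKO with sums of 70.3 and 167 FPKM, and their part in the AMPA values was not tested. Gria3 was at 0.17 FPKM in wild type and 2.62 FPKM in Ezh2-CKO in Cd73N, the largest log2 difference of any member in Cd73N at 1.63 (SE 0.059). With a pseudocount of 5 it was 0.56, short of the threshold and below the 0.89 of Gria4. Gria3 lies on chromosome X, and the sex-linked transcripts separated the genotypes. Xist, the RNA that coats the inactive X chromosome, was at 52.2 and 240 FPKM in Cd73N and at 47.0 and 95.6 FPKM in Cd73P, and 4 Y-linked genes summed to 26.8 and 0.72 FPKM and to 27.9 and 0.50 FPKM. Gabra3, Glra2 and Glra4 are the other members on chromosome X, and none passed the threshold between genotypes, at log2 differences in Cd73N of -0.02, 0.40 and 0.06. The part of the sex difference in the Gria3 value was not tested, nor was its part in any other genotype difference. All 4 AMPA genes were under 1 FPKM in both Cd73P libraries, where Gria1 was at 0.70 and 0.18 FPKM and Gria2 at 0.50 and 0.77 FPKM. Gria4 stood at 0.57 and 0.43 FPKM there and Gria3 at 0.09 and 0.13 FPKM.

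NMDA receptors need the Grin1 subunit, and Grin1 was the highest of its class in Cd73N, at 8.09 and 8.99 FPKM. In Cd73P it was at 0.23 and 0.18 FPKM, and all 7 genes of the class were under 1 FPKM there. The 4 genes for GluN2 subunits, which bind glutamate and set the kinetics of the receptor, were all under 1 FPKM and summed to 0.46 and 0.79 FPKM in Cd73N. Grin3a was at 1.26 and 1.81 FPKM in Cd73N. No NMDA receptor gene passed the threshold between genotypes in either fraction.

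Kainate receptor genes summed in Cd73N to 129 FPKM in wild type and 117 FPKM in Ezh2-CKO, mostly Grik1, whose subunit is known from OFF bipolar cells. Grik1 was at 99.0 and 89.1 FPKM in Cd73N, a log2 difference of -0.15 (SE 0.022). In Cd73P it was at 3.43 and 1.34 FPKM, a log2 difference of -0.92 (SE 0.080). Grik5, a high-affinity subunit that needs a partner, was at 26.9 and 22.0 FPKM in Cd73N and at 6.41 and 5.003 FPKM in Cd73P, short of the threshold in both. Its relative Grik4 went the other way. Grik4 was at 1.56 and 3.48 FPKM in Cd73N, a log2 difference of 0.81 (SE 0.088). In Cd73P it was at 2.18 and 5.26 FPKM, a log2 difference of 0.98 (SE 0.086), and it made up 16.8% and 44.0% of the class. Grik4 was the 1 ionotropic receptor gene above 1 FPKM whose level in Cd73P was not below that in Cd73N in wild type, at 140% of it. Grik2 and Grik3 stayed under 1 FPKM in all libraries.

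The delta receptors are structural relatives of the AMPA and kainate receptors that are bound by cerebellins at synapses. Grid1 was at 24.2 and 15.4 FPKM in Cd73N, a log2 difference of -0.62 (SE 0.044), and at 1.15 and 0.23 FPKM in Cd73P, a log2 difference of -0.81 (SE 0.080). With the libraries scaled by the median ratio or the FPKM sum, the Cd73N difference of Grid1 was -0.54 or -0.48 and no longer past the threshold. The Grid1 value lay above its own deposited upper bound in Cd73N wild type, so its SE rests on a bound that misses the value.

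Of the 7 metabotropic glutamate receptor genes measured here, Grm5 led in Cd73N and Grm7 and Grm8 in Cd73P. Grm5, a group I receptor that releases calcium from internal stores, was at 8.14 and 11.7 FPKM in Cd73N and at 0.53 and 0.17 FPKM in Cd73P. Neither difference passed the threshold. Grm8 had a log2 difference of 1.16 (SE 0.079) in Cd73P, the largest positive one of any member there, except with a pseudocount of 0.1, where Gabra2 was at 1.64 and Grm8 at 1.38, whereas its difference in Cd73N was 0.11 (SE 0.077). Grm7 had a log2 difference of -0.58 (SE 0.064) in Cd73P, just short of the threshold. Grm7 thus held 71.2% of the metabotropic sum of Cd73P in wild type and 40.7% of it in Ezh2-CKO, where Grm8 held 57.8%. The order of these related genes in Cd73P was reversed between the genotypes, Grm7 being higher in wild type and Grm8 in Ezh2-CKO. Rod markers moved with Grm8 in part, since between the Cd73P libraries 5 of 24 were higher and 0 lower in Ezh2-CKO (median log2 difference 0.35), and their part in the Grm8 value was not tested.

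GABA-A receptor genes formed the largest family by level, with 65.3% of the members' summed FPKM in the wild-type library of Cd73N and 56.9% in that of Ezh2-CKO. Their 16 genes summed to 596 and 401 FPKM in Cd73N and to 28.2 and 15.4 FPKM in Cd73P, so that the level was lower in the library labelled Ezh2-CKO in both fractions. The glutamate receptor genes among the members, by contrast, summed to 212 and 217 FPKM in Cd73N and to 29.4 and 28.5 FPKM in Cd73P. The metabotropic receptor gene left out by the rule is not in these sums. The glutamate share of the members' FPKM was accordingly 23.2% and 30.8% in Cd73N and 38.03% and 50.8% in Cd73P.

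**Figure D4:**
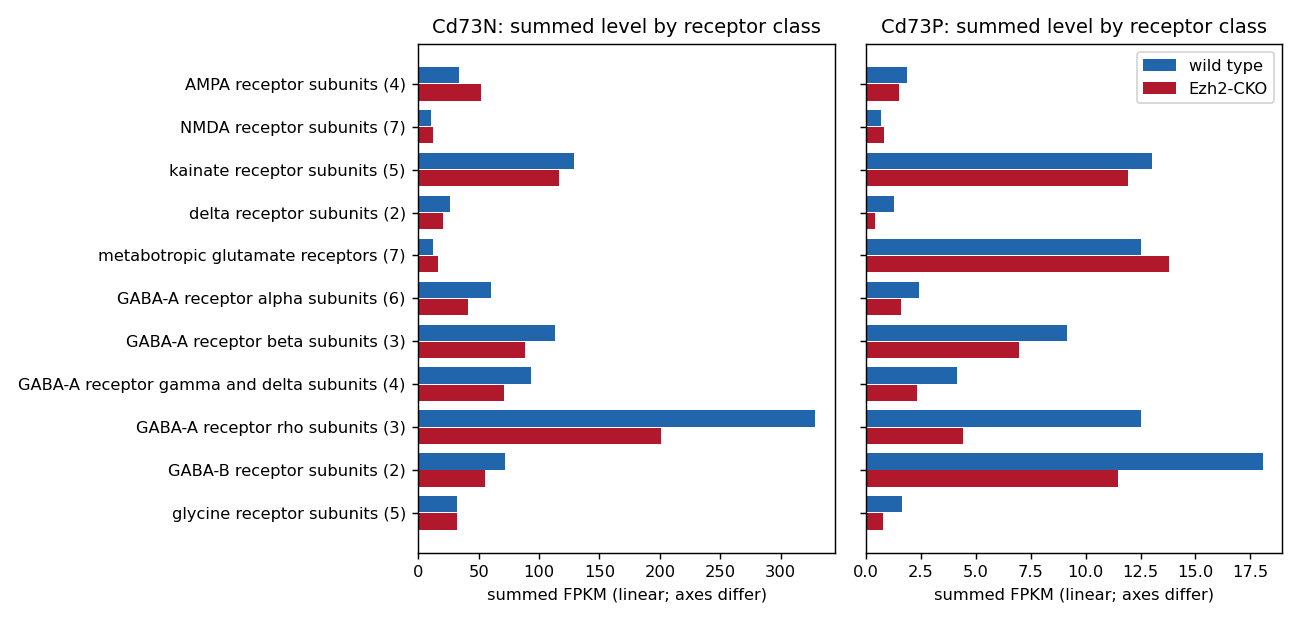
Summed FPKM of each of the 11 receptor classes, with the number of genes in parentheses, in Cd73N (left) and Cd73P (right), blue for wild type and red for Ezh2-CKO, 1 library per bar. The rho class is the tallest in Cd73N, at 329 and 201 FPKM, and the 2 panels have different linear axes that start at 0.

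The rho subunits form GABA-gated chloride channels that desensitise little. Gabrr1 was at 199 FPKM in wild type and 106 FPKM in Ezh2-CKO in Cd73N, a log2 difference of -0.90 (SE 0.021). In Cd73P it was at 8.03 and 1.70 FPKM, the largest negative log2 difference of any member there at -1.74 (SE 0.10). Gabrr3 was at 55.3 and 30.7 FPKM in Cd73N, a log2 difference of -0.83 (SE 0.046), and at 1.82 and 0.89 FPKM in Cd73P, where the log2 difference of -0.58 (SE 0.15) was just short of the threshold. The third rho gene stood apart from these. Gabrr2 was at 74.7 and 64.3 FPKM in Cd73N and at 2.68 and 1.85 FPKM in Cd73P, with log2 differences of -0.21 (SE 0.034) and -0.37 (SE 0.13). Gabrr2 and Gabrr1 are neighbours, lying together between 33150087 and 33250563 of chromosome 4 (mm9), yet the log2 difference of Gabrr1 in Cd73N was past the threshold and that of Gabrr2 was not. The class as a whole summed to 329 and 201 FPKM in Cd73N and to 12.5 and 4.45 FPKM in Cd73P. Bipolar markers moved with these genes, 10 of 18 being lower and 0 higher in Cd73N (median log2 difference -0.66) and 12 lower and 1 higher in Cd73P (median -1.36), and no bipolar marker was at 0 in any library. Their part in the rho values was not tested. All 3 rho genes lay above their own upper bounds in both Cd73N libraries.

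Gabrb2, a beta subunit, was at 12.6 and 8.18 FPKM in Cd73N, a log2 difference of -0.56 (SE 0.042) just short of the threshold, and at 0.24 and 0.05 FPKM in Cd73P. Gabra2 was the 1 GABA receptor gene with a higher value in Ezh2-CKO past the threshold. It stood at 0.23 and 0.35 FPKM in Cd73N and at 0.27 and 1.06 FPKM in Cd73P, where the log2 difference was 0.70 (SE 0.10). Gabra2 thus held 11.2% of the alpha class of Cd73P in wild type and 65.6% of it in Ezh2-CKO, although its level there was close to 1 FPKM. Gabra3 was at 3.87 and 3.80 FPKM in Cd73N, and Gabra6, a subunit of cerebellar granule cells, was listed at 0 in 3 libraries and at 0.0097 FPKM in Cd73N of wild type. Gabra4, Gabra5, Gabrb1, Gabrd, Gabrg1 and Gabrg3 did not exceed 1.44 FPKM in any library.

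GABA-B receptors are obligate dimers of the products of Gabbr1 and Gabbr2. Gabbr1 was at 57.8 and 39.0 FPKM in Cd73N and at 17.0 and 11.2 FPKM in Cd73P, with log2 differences of -0.56 (SE 0.025) and -0.56 (SE 0.049), short of the threshold in both. Its value lay above its own upper bound in both Cd73N libraries. Gabbr2 was at 14.3 and 16.5 FPKM in Cd73N, a log2 difference of 0.20 (SE 0.045), but at 1.05 and 0.29 FPKM in Cd73P, a log2 difference of -0.66 (SE 0.073). In every library Gabbr1 was the higher of the partners, and in Cd73P it held 94.2% and 97.4% of their sum.

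Glycine receptors are built of alpha subunits and the beta subunit that anchors them to the scaffold protein gephyrin. Glrb was at 25.5 and 26.8 FPKM in Cd73N, a log2 difference of 0.07 (SE 0.043), and at 1.30 and 0.63 FPKM in Cd73P, a log2 difference of -0.50 (SE 0.10). Glra1 was at 5.72 and 3.09 FPKM in Cd73N, a log2 difference of -0.72 (SE 0.12), and at 0.11 and 0.09 FPKM in Cd73P. The beta subunit gene thus held its level in Cd73N between genotypes to within 1.05-fold, whereas Glra1 made up 17.8% of the class in wild type and 9.77% in Ezh2-CKO. Glra2 was at 0.96 and 1.59 FPKM in Cd73N, and Glra3 and Glra4 did not exceed 0.0448 FPKM in any library.

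The members also shared a feature that did not enter their choice. Their median genomic span was 182 kb, beside 15.9 kb for 21593 genes listed on a single row, and 58.3% of members, beside 10.4% of all genes, spanned 100 kb or more. Grin3b was the shortest at 6.47 kb. In addition, 15 members lay in 5 groups of neighbours less than 1 Mb apart, among them Gria2 with Glrb on chromosome 3 and Gabrr2 with Gabrr1.

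Other genes of these pathways were taken from fixed lists. Of the 14 auxiliary subunits of AMPA and kainate receptors, in Cd73N 4 were higher and 1 lower in Ezh2-CKO, and 0 were higher and 1 lower in Cd73P. The shares over all genes, to be read beside each of these list counts, were 7.18% higher and 1.71% lower in Cd73N and 2.26% and 2.38% in Cd73P. The list summed to 203 and 177 FPKM in Cd73N. Cacng4, a TARP that traffics AMPA receptors, was at 11.0 and 27.6 FPKM in Cd73N, a log2 difference of 1.25 (SE 0.079). Shisa9, which slows the recovery of AMPA receptors, was at 2.59 and 13.3 FPKM, a log2 difference of 1.995 (SE 0.056). Neto1, which modifies kainate receptors, was at 8.74 and 2.49 FPKM in Cd73N, a log2 difference of -1.48 (SE 0.076), and its relative Neto2 was at 1.71 and 0.75 FPKM in Cd73P, a log2 difference of -0.63 (SE 0.070). Among 8 measured partners of GABA-B and metabotropic receptors, 2 were higher and 0 lower in Cd73N, and 1 was higher and 2 lower in Cd73P. Elfn1, an adhesion protein that binds group III metabotropic receptors across the synaptic cleft, was at 5.94 and 12.1 FPKM in Cd73N and at 28.7 and 45.4 FPKM in Cd73P, with log2 differences of 0.92 (SE 0.061) and 0.65 (SE 0.032). Elfn2 was at 1.12 and 0.33 FPKM and Rgs7, which shortens G-protein signals, at 1.37 and 0.45 FPKM in Cd73P, with log2 differences of -0.67 (SE 0.069) and -0.71 (SE 0.096). Of the 7 ligands of delta receptors, 2 were higher and 0 lower in Cd73N and 0 were higher and 2 lower in Cd73P, none of them reaching both 5 FPKM and the threshold.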

How the data were processed

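Poly(A) RNA of the 4 sorted fractions was sequenced as 36-base single-end reads. The authors mapped the reads to mm9 with TopHat2 2.0.8b (coverage search, at most 50 hits) and obtained FPKM from Cufflinks 2.1.1 on RefSeq genes. bcl2fastq 1.8.4 is also named in the submitters' processing notes. The deposited FPKM values, their bounds and their status were used as given and were not scaled between libraries. Rows sharing a symbol were summed, small RNAs were left out by name (731 symbols), and a gene needed OK status in both libraries compared. Differences are of log2(FPKM + 1), which understates changes of weakly expressed genes, and a member was counted past 1.5-fold. SEs came from the width of the deposited bounds, taken as 4 SEs. With 1 library per group no test was run and samples were grouped by title and characteristics. Members with at least 5 FPKM in any library were named with all values, others only if past the threshold between genotypes, by class or by range; Ezh2, Nt5e and Xist served as label checks. The members, lists and naming rule were chosen with earlier results of these data known. The 250-base windows lay in front of the outermost start listed in the tables, in GENCODE vM1 or in the RefSeq promoter table (build GRCm38.p6, placed on mm9 by exact match, 32 of 48 members matched), and strand came from GENCODE. Some members that met the naming rule are not reported here. Counting was tested on simulated data. Python 3.11.15 with pandas 2.3.3, numpy 2.4.6 and matplotlib 3.10.9 was used. Alternatives were other pseudocounts, folds, scalings and filters.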

Additional observations from a re-analysis of the deposited data

Results flagged for a closer look

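In 4 members the genotype difference had opposite signs in the 2 fractions, each fraction being 1 library per genotype, so that the values differed beyond counting error but the difference was not tested over samples. The genotype difference in Cd73N minus that in Cd73P, on the log2(FPKM + 1) scale, was 0.87 for Grm5 (0.47 in Cd73N, -0.40 in Cd73P), 0.86 for Gabbr2 (0.20 and -0.66), 0.59 for Glra2 (0.40 and -0.19) and 0.39 for Grik2 (0.27 and -0.12). The Cd73P levels of Grm5, Glra2 and Grik2 were under 1 FPKM in both genotypes. Gabbr2 alone of these passed 1.5-fold between genotypes, in Cd73P.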

How the results depend on the processing

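No paired analysis was possible because each group held 1 library. Signs were checked under the other pseudocounts and the scalings, only for members with at least 1 FPKM in either library compared. None of these that was past the threshold changed direction, and among them Gabra3 alone changed sign. It went from -0.02 to 0.04 and 0.10 in Cd73N under scaling by the median ratio and by the FPKM sum. These scalings shifted all genes by 0.08 and 0.15 in Cd73N, by 0.04 and -0.05 in Cd73P, and by 0.31 and 0.42 between fractions in wild type and 0.27 and 0.22 in Ezh2-CKO. Members counted in Cd73N went from 4 higher and 5 lower to 8 and 8 with a pseudocount of 0.1, to 1 and 2 with one of 5, and to 2 and 0 at 2-fold. The 5 lower went to 3 under either scaling, with Grid1 among those lost, and the 4 higher went to 1 with at least 10 FPKM. In Cd73P the 3 higher and 6 lower went to 5 and 17 with a pseudocount of 0.1, to 1 and 1 with one of 5, to 1 and 1 at 2-fold, and to 0 and 0 with at least 10 FPKM, and the lower to 12 under scaling by the FPKM sum. Between fractions of wild type, the 2 higher and 26 lower went to 0 and 15 with at least 10 FPKM and to 1 and 12 when the pseudocount was dropped and at least 1 FPKM was required in both libraries, which left 14 members, and the higher to 1 with a pseudocount of 5. In Ezh2-CKO the 3 higher and 29 lower went to 0 and 16 with at least 10 FPKM, the lower to 7 without a pseudocount among 9 members with at least 1 FPKM in both, and the higher to 1 with a pseudocount of 5 and at 2-fold. The causes were not tested beyond what the settings themselves do, such as removing genes. Of the alternatives chosen after seeing the data, leaving out members above their own upper bound took the 5 lower in Cd73N to 1, with Gabrr1, Gabrr3 and Grid1 among those lost, so these calls rest on values that the deposited bounds miss. Absolute depth is unknown, members under 1 FPKM give weak evidence on differences, and 1 library per group leaves biological spread unmeasured.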

Other observations

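Genes for transmitter handling and for postsynaptic scaffolds were compared in the same way. Of 20 genes for transmitter synthesis, vesicular loading and uptake, in Cd73N 7 were higher and 0 lower in Ezh2-CKO, and 1 was higher and 1 lower in Cd73P. Over all genes 7.18% were higher and 1.71% lower in Cd73N, and 2.26% and 2.38% in Cd73P. Slc1a3, the glutamate transporter of Müller glia, was at 62.8 and 270 FPKM in Cd73N, a log2 difference of 2.09 (SE 0.018), and at 3.19 and 7.64 FPKM in Cd73P, a log2 difference of 1.04 (SE 0.074). The GABA transporter gene Slc6a11 was at 57.0 and 115 FPKM in Cd73N. Abat, which breaks down GABA, was at 14.4 and 28.6 FPKM there. Slc1a3 is also in the Müller glia marker list, of which all 19 genes were higher in Cd73N, and 6 of 17 amacrine markers were higher there. The part of those cells in these values was not tested.

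Of 20 excitatory scaffold genes, 1 was higher and 0 lower in Cd73N and 0 differed in Cd73P by 1.5-fold. The 1 gene was Nlgn1, a postsynaptic adhesion protein, at 9.36 and 16.6 FPKM, a log2 difference of 0.76 (SE 0.046). Of 9 inhibitory scaffold genes, 1 was higher and 0 lower in Cd73N and 0 differed in Cd73P.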
